A study of Mus musculus with 13 samples.

Results

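The transcripts described here are those of 10 genes that take part in the passage of a cell through G1. They are the D cyclins Ccnd1, Ccnd2 and Ccnd3, the kinases Cdk4 and Cdk6, and the kinase inhibitors Cdkn2c, Cdkn2d, Cdkn1a and Cdkn1b. The last is Rb1, which encodes the retinoblastoma protein. The 10 genes were taken as a fixed list by gene symbol. All 10 were found among the 24015 gene symbols of the count table, and all 10 were among the 12536 genes that passed the filter on low counts. They were measured in mouse haematopoietic stem cells (HSCs), in 13 libraries. In recipients of 1 transplanted Vwf+ HSC, the blood made over 16 weeks was P-restricted (PLT-HSC, 3 libraries), PEM-restricted (PEM-HSC, 6 libraries) or multilineage (MUL-HSC, 4 libraries). All libraries carry the strain label C57BL/6, and all were made from 100 donor-derived bone marrow cells sorted as LSK Flt3- CD150+ CD48- CD45.2+ Gata1-. The cells of a library descend from the transplanted cell, so each recipient is 1 clone. The labels give neither the age of the animals nor whether replicates came from separate recipients, so the p-values cover no more than the spread between libraries, and part of that may be technical.

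In G1, D-type cyclins bind CDK4 or CDK6, and the active kinase phosphorylates the retinoblastoma protein, which then releases E2F transcription factors and lets S phase genes be transcribed. The INK4 inhibitors, among them p18 (Cdkn2c) and p19 (Cdkn2d), bind the kinases and block cyclin binding, while p21 (Cdkn1a) and p27 (Cdkn1b) of the CIP/KIP family bind cyclin-kinase complexes. Most HSCs rest outside the cell cycle. In human long-term HSCs, a low level of CDK6 is known to go with a slow exit from rest, and mice without p18 are known for an enlarged HSC pool.

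Gene counts per library ran from 16371921 to 41367057, so that the floor of 3 counts stood at no more than 0.183 CPM (a gene's count scaled to the total gene count of its library). Of the 7 HSC markers Kit, Ly6a, Slamf1, Procr, Mecom, Hlf and Fgd5, none was at 0 in any library, and their summed level was 1670.1 to 2537 CPM in PLT-HSC, 1380 to 2210.0 CPM in PEM-HSC and 1146 to 1690.2 CPM in MUL-HSC. The globin genes Hbb-b1 and Hba-a1 and the T cell genes Cd3e, Cd3d, Cd4 and Cd8a were at 0 in every library. Other erythroid markers were not, chiefly Epor at up to 58.4 CPM and Gata1 at up to 27.6 CPM, and the 8 erythroid markers summed to 7.32 to 48.1 CPM over PLT-HSC libraries, 16.3 to 64.0 CPM over PEM-HSC libraries and 25.5 to 35.8 CPM over MUL-HSC libraries. The 5 macrophage markers summed to 2.14 to 23.8 CPM over PLT-HSC libraries, 3.71 to 65.0 CPM over PEM-HSC libraries and 0 to 10.5 CPM over MUL-HSC libraries. The 7 megakaryocyte and platelet markers summed to 129 to 238 CPM over PLT-HSC libraries, 134 to 270 CPM over PEM-HSC libraries and 118 to 309 CPM over MUL-HSC libraries. For the 6 neutrophil markers the sums were 0 to 6.17, 0 to 14.4 and 0.991 to 8.43 CPM in the same order. The B cell markers summed to 90.9 to 184 CPM over all libraries, nearly all of it Cd79b. A list of 5 genes known from lymphoid-primed progenitors differed most between the groups, at 29.7 to 66.4 CPM in PLT-HSC, 22.7 to 114 CPM in PEM-HSC and 98.2 to 625 CPM in MUL-HSC, most of it Cd34. Among them Dntt and Il7r were at 0 in every library, while transcripts of Flt3 and Cd48 were found in every MUL-HSC library. In MUL-HSC replicates 1 to 4, Flt3 stood at 10.7, 39.2, 0.428 and 8.73 CPM, and Cd48 at 59.0, 22.8, 6.84 and 10.6 CPM. The highest values elsewhere were 5.34 CPM of Flt3 (PEM-HSC replicate 4) and 15.9 CPM of Cd48 (PEM-HSC replicate 1). The sort for Flt3- and CD48- cells would leave out cells with those surface proteins, so the list does not settle whether that cell type was present. The part of these marker levels in the results on the G1 genes was not tested. In bulk libraries fewer cells of a type and less RNA per cell cannot be told apart.

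To compare genes with each other, CPM was divided by the length of the principal transcript, in kilobases. On this scale Cdk4 was the most abundant of the 10, with a mean level over the 13 libraries of 474 CPM per kb, and Cdk6 the least, with 0.402 CPM per kb, a ratio of 1179. Among D cyclins Ccnd3 (64.4 CPM per kb) and Ccnd2 (50.4 CPM per kb) stood above Ccnd1 (11.6 CPM per kb). Among inhibitors Cdkn2c (17.2 CPM per kb) stood above Cdkn2d (6.39), Cdkn1a (2.87) and Cdkn1b (1.62), and Rb1 was at 5.03 CPM per kb. The ratio of Cdk4 to Cdk6 depends on the lengths used, 2053 bases for Cdk4 and 11525 bases for Cdk6. In plain CPM, Cdk4 averaged 973 and Cdk6 4.63, and Cdk6 ran from 0 to 18.6 CPM over the libraries. By that measure Cdk4 ranked 87 of the 12536 tested genes and Cdk6 ranked 10106.

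The promoters of the kinases with the highest and the lowest level are shown because they differ in short motifs. RefSeq promoter windows in build GRCm38.p6, from 250 bases before to 50 bases after the start, were matched by symbol for 7 of the 10 genes: Ccnd3, Cdk4, Cdk6, Cdkn2c, Cdkn2d, Cdkn1a and Cdkn1b. The 250 bases before the start are printed 5′ to 3′ on the plus strand, with the E-box CACGTG in capitals.
Cdk4, chr10:127063285-127063534: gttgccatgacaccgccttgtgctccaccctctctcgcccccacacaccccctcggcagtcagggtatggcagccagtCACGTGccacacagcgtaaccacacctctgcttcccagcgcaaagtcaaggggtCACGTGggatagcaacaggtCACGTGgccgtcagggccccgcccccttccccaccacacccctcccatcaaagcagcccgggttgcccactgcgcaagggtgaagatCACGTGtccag
Cdk6, chr5:3343643-3343892: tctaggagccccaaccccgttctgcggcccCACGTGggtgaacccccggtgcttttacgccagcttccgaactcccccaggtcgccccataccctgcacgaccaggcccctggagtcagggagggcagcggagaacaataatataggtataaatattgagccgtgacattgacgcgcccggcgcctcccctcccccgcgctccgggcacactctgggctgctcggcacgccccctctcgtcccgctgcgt

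The Cdk4 window held the E-box 4 times, at -172, -118, -98 and -11 counted back from the start, and the Cdk6 window held it once, at -220. The motif reads the same on both strands. Of 32851 promoter windows of the same length, 7.15% held at least 1 E-box and 0.0244%, or 8 windows, held at least 4. No window of the 7 genes held an E2F motif in the forms TTTGGCGC, TTTCCCGC, TTTCGCGC or TTTGCCGC on either strand, which 2.26% of all windows held, nor the cyclic AMP response element TGACGTCA, which 1.79% held. The Cdk4 and Cdk6 windows also differed in the GC box GGGCGG, counted on both strands, with 3 against 0. Of all windows 35.7% held it. Among the other genes, Cdkn2c held the E-box once, in 1 of its 2 windows, at 35 after the start. Ccnd3 and Cdkn1a had 2 windows each as well. A match describes the letters and not a bound site, and the part of these motifs in transcript levels was not tested.

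Of the 10 genes, Ccnd1 and Rb1 stood higher and Cdk4 lower in PLT-HSC than in MUL-HSC, with no overlap between the libraries in CPM, and none of the 10 passed the test over all genes. The Cdk4 libraries overlapped once CPM was scaled by the TMM factors of the fit (trimmed mean of M-values). Ccnd1 averaged 59.6 ± 20.8 CPM in PLT-HSC (SD, n = 3), 50.4 ± 19.5 CPM in PEM-HSC (n = 6) and 20.7 ± 10.5 CPM in MUL-HSC (n = 4). Rb1 averaged 43.1 ± 18.4 CPM in PLT-HSC, 22.9 ± 15.6 CPM in PEM-HSC and 9.56 ± 3.91 CPM in MUL-HSC. Cdk4 averaged 761 ± 176 CPM in PLT-HSC, 965 ± 127 CPM in PEM-HSC and 1142 ± 213 CPM in MUL-HSC.

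**Figure D1:**
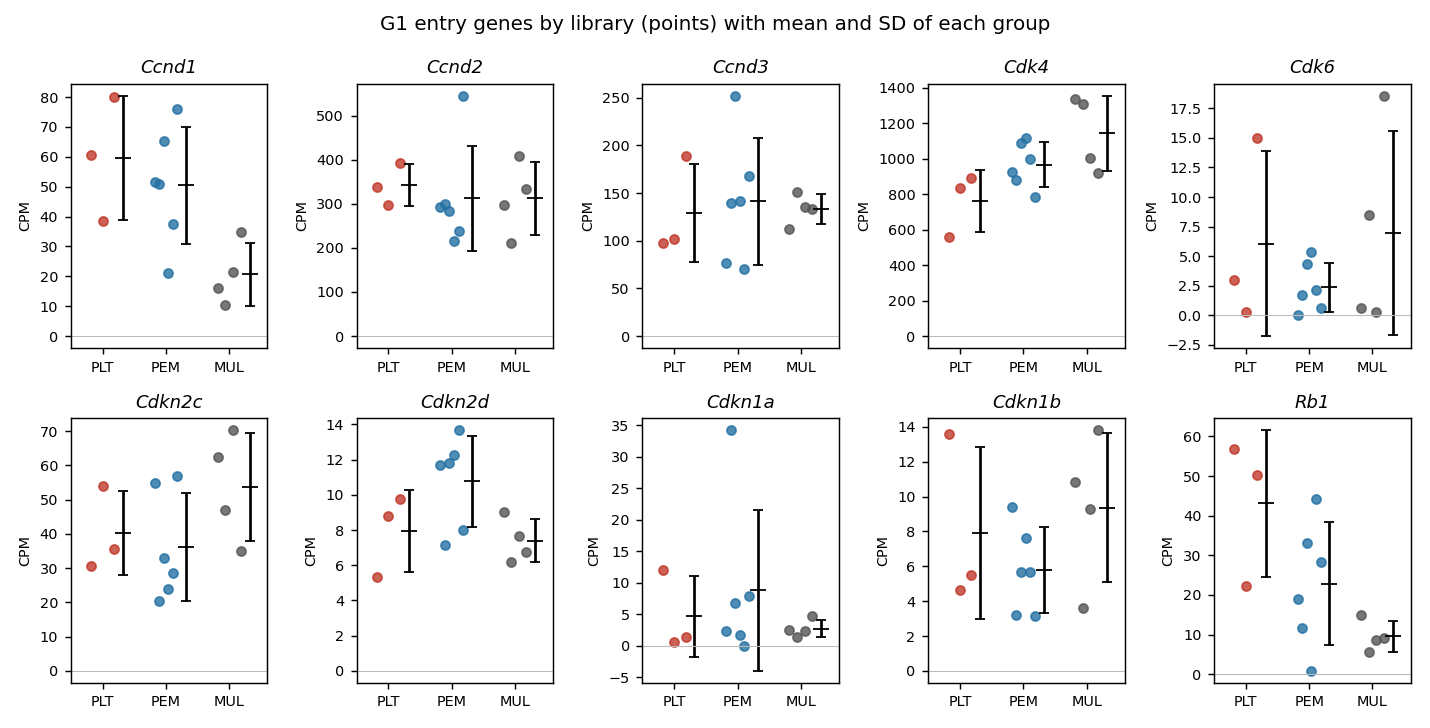
CPM of each of the 10 genes in every library (points, 3 PLT-HSC, 6 PEM-HSC and 4 MUL-HSC), with the mean and SD of each group beside them (bars). The Ccnd1 and Rb1 points of PLT-HSC lie above those of MUL-HSC and the Cdk4 points lie below them in CPM, though not in TMM-scaled CPM, while PEM-HSC overlaps both groups in each of these genes.

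Cyclin D1, encoded by Ccnd1, is the D cyclin most closely tied to growth factor signals. Ccnd1 stood at 60.5, 38.4 and 80.0 CPM in PLT-HSC replicates 1 to 3. In PEM-HSC its lowest, median and highest values were 21.0, 51.4 and 76.1 CPM. In MUL-HSC it stood at 16.0, 10.5, 21.3 and 34.9 CPM. Each of the PLT-HSC libraries was above each of the MUL-HSC libraries, by a margin of 38.4 against 34.9 CPM at the nearest, and 5 of 6 PEM-HSC libraries did too, the exception being PEM-HSC replicate 4 at 21.0 CPM. The mean was 2.88 times that of MUL-HSC in PLT-HSC and 2.44 times in PEM-HSC. The fitted log2 fold change was 1.51 for PLT-HSC against MUL-HSC (SE 0.46, unadjusted p = 0.0046, edgeR quasi-likelihood adjusted p = 0.461) and 1.28 for PEM-HSC against MUL-HSC (SE 0.41, unadjusted p = 0.00605, adjusted p = 0.657). Both comparisons use the same 4 MUL-HSC libraries. Between PLT-HSC and PEM-HSC it was 0.23 (SE 0.42, adjusted p = 1).

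The annotated gene Oraov1, listed as LTO1 in the reference, overlaps exons of Ccnd1 on the opposite strand, and the strand mode of the counting is not given in the sources used here, so reads from the shared stretch cannot be told apart. Oraov1 averaged 2.34 ± 1.19 CPM in PLT-HSC, 12.3 ± 6.33 CPM in PEM-HSC and 24.4 ± 10.9 CPM in MUL-HSC. Its order over the groups ran opposite to that of Ccnd1, with no overlap between PLT-HSC and MUL-HSC libraries (log2 fold change -3.40, SE 0.96, edgeR adjusted p = 0.346). Its part in the Ccnd1 values was not tested.

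Ccnd2, the D cyclin with the highest CPM in these cells, showed no such difference. The PLT-HSC libraries had 338, 298 and 393 CPM, the PEM-HSC libraries 216 to 545 CPM with a median of 288 CPM, and the MUL-HSC libraries 297, 210.1, 408 and 333 CPM. The PLT-HSC values fell inside the range of MUL-HSC, and the log2 fold change was 0.12 (SE 0.28, edgeR adjusted p = 0.999) for PLT-HSC and -0.02 (SE 0.23, adjusted p = 0.999) for PEM-HSC against MUL-HSC. Of Ccnd3, the third D cyclin, the PLT-HSC libraries had 97.8, 102 and 189 CPM, the PEM-HSC libraries 70.5 to 252 CPM with a median of 140.3 CPM, and the MUL-HSC libraries 112, 151, 135 and 134 CPM. The SD was 51.4 CPM among PLT-HSC libraries, 66.7 CPM among PEM-HSC libraries and 16.0 CPM among MUL-HSC libraries, and the MUL-HSC libraries lay inside the range of PEM-HSC. Its log2 fold change was -0.08 (SE 0.36, edgeR adjusted p = 0.999) for PLT-HSC and 0.06 (SE 0.30, adjusted p = 0.999) for PEM-HSC against MUL-HSC.

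Taken per length, the share of Ccnd1 among D cyclin transcripts was 12.0% ± 2.14 over PLT-HSC libraries (SD, n = 3), 10.6% ± 3.07 over PEM-HSC libraries (n = 6) and 4.60% ± 2.04 over MUL-HSC libraries (n = 4). The share ran from 9.72% to 14.0% in PLT-HSC, from 5.26% to 14.4% in PEM-HSC and from 2.62% to 7.46% in MUL-HSC, so PLT-HSC and MUL-HSC libraries did not overlap. The summed level of the 3 D cyclins was 131 ± 36.2 CPM per kb over PLT-HSC libraries, 129.7 ± 44.5 over PEM-HSC libraries and 118 ± 14.3 over MUL-HSC libraries, which differ by less than the spread between libraries. Ccnd2 and Ccnd3 together held the larger part of D cyclin transcripts in every library.

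**Figure D2:**
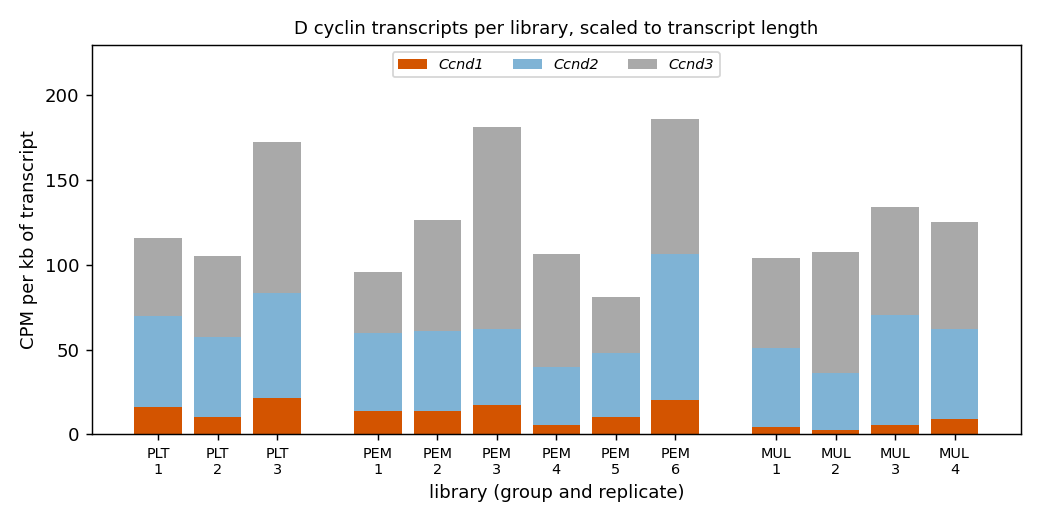
D cyclin transcripts in each library, as CPM per kb of the principal transcript, stacked by gene (Ccnd1 at the bottom), with PLT-HSC left, PEM-HSC in the middle and MUL-HSC right. The Ccnd1 segment makes up 9.72% to 14.0% of the bar in PLT-HSC and 2.62% to 7.46% in MUL-HSC, while the bar heights of the groups overlap.

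CDK4 is the D cyclin kinase with nearly all the transcripts in these libraries. Cdk4 stood at 561, 835 and 889 CPM in PLT-HSC. In PEM-HSC its lowest, median and highest values were 785, 961 and 1115 CPM. In MUL-HSC it stood at 1338, 1310.3, 1003 and 918 CPM. All PLT-HSC libraries lay below all MUL-HSC libraries, narrowly at 889 against 918 CPM, and MUL-HSC replicates 1 and 2 lay above every library of the other groups. The overlap with TMM-scaled CPM is a setting added after seeing the data. The log2 fold change was -0.60 for PLT-HSC against MUL-HSC (SE 0.21, unadjusted p = 0.0113, edgeR adjusted p = 0.589), a mean 0.666 times that of MUL-HSC. It was -0.27 for PEM-HSC against MUL-HSC (SE 0.18, adjusted p = 0.999) and -0.33 for PLT-HSC against PEM-HSC (SE 0.20, adjusted p = 1). Tspan31, whose exons overlap those of Cdk4 on the opposite strand, stood at 324 ± 58.8 CPM in PLT-HSC, 319 ± 39.0 CPM in PEM-HSC and 291 ± 63.4 CPM in MUL-HSC.

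Cdk6, the other D cyclin kinase, was close to the floor in part of the libraries. It had 86, 8 and 485 counts in PLT-HSC, 0 to 150 counts in PEM-HSC and 13, 219, 4 and 768 counts in MUL-HSC. In CPM these were 2.96, 0.271 and 15.0 in PLT-HSC, 0 to 5.37 with a median of 1.93 in PEM-HSC, and 0.586, 8.45, 0.244 and 18.6 in MUL-HSC. Each group held libraries under 1 CPM, and the highest value was 55.2 times the lowest in PLT-HSC and 76.0 times the lowest in MUL-HSC. The log2 fold change was -0.29 (SE 1.85) for PLT-HSC and -1.55 (SE 1.54) for PEM-HSC against MUL-HSC, both with an edgeR adjusted p of 0.999, so a difference of several fold was not detectable.

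Rb1 encodes the pocket protein that the D cyclin kinases phosphorylate. Rb1 stood at 56.9, 22.2 and 50.1 CPM in PLT-HSC. In PEM-HSC its lowest, median and highest values were 0.860, 23.7 and 44.3 CPM. In MUL-HSC it stood at 14.9, 5.56, 8.61 and 9.14 CPM. All 3 PLT-HSC libraries were above all 4 MUL-HSC libraries, and PEM-HSC reached from below the MUL-HSC range, in replicate 4, into the PLT-HSC range. The mean in PLT-HSC was 4.51 times that of MUL-HSC, with a log2 fold change of 2.14 (SE 0.82, unadjusted p = 0.0192, edgeR adjusted p = 0.632). For PEM-HSC against MUL-HSC it was 1.24 (SE 0.72, adjusted p = 0.999), and for PLT-HSC against PEM-HSC 0.89 (SE 0.73, adjusted p = 1). The genes Lpar6 and Rcbtb2 overlap annotated exons of Rb1 on the opposite strand. Lpar6 averaged 484 ± 235 CPM in PLT-HSC, 346 ± 86.2 CPM in PEM-HSC and 276 ± 110 CPM in MUL-HSC, the same order as Rb1 at a higher level. Its log2 fold change for PLT-HSC against MUL-HSC was 0.86 (SE 0.37, unadjusted p = 0.0349, edgeR adjusted p = 0.646), with groups that overlapped. Reads from the stretch it shares with Rb1 cannot be told apart, and its part in the Rb1 values was not tested. Rcbtb2 averaged 169.6 ± 58.1, 179 ± 43.0 and 181 ± 41.0 CPM in PLT-HSC, PEM-HSC and MUL-HSC.

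Among the INK4 inhibitors, Cdkn2c had 30.7, 54.1 and 35.7 CPM in the PLT-HSC libraries, 20.5 to 57.0 CPM with a median of 30.8 CPM in the PEM-HSC libraries, and 62.5, 47.1, 70.2 and 35.0 CPM in the MUL-HSC libraries. The groups overlapped, and the log2 fold change was -0.41 (SE 0.45, edgeR adjusted p = 0.999) for PLT-HSC and -0.60 (SE 0.37, adjusted p = 0.999) for PEM-HSC against MUL-HSC. Cdkn2d had 5.34, 8.78 and 9.77 CPM in the PLT-HSC libraries, 7.16 to 13.7 CPM with a median of 11.8 CPM in the PEM-HSC libraries, and 9.01, 6.21, 7.63 and 6.74 CPM in the MUL-HSC libraries. In 4 of 6 PEM-HSC libraries Cdkn2d was above every library of the other groups, and the log2 fold change of PEM-HSC against MUL-HSC was 0.52 (SE 0.70, edgeR adjusted p = 0.999). Per length, Cdkn2c made up 62.3% ± 12.4 of the transcripts of the 4 inhibitors over PLT-HSC libraries, 52.0% ± 15.2 over PEM-HSC libraries and 71.0% ± 8.60 over MUL-HSC libraries.

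Among the CIP/KIP inhibitors, Cdkn1a, the p53 target p21, was low and uneven. The PLT-HSC libraries had 12.0, 0.576 and 1.36 CPM. In PEM-HSC it was at 0 in replicate 5 and at 34.2 CPM in replicate 2, with a median of 4.52 CPM. The MUL-HSC libraries had 2.52, 1.31, 2.32 and 4.64 CPM. The highest values of PLT-HSC and PEM-HSC thus came from 1 library each. The log2 fold change of 0.79 for PLT-HSC against MUL-HSC (SE 1.65, edgeR adjusted p = 0.999) was -1.51 without PLT-HSC replicate 1, and that of 1.71 for PEM-HSC against MUL-HSC (SE 1.50, adjusted p = 0.999) was 0.45 without PEM-HSC replicate 2. Cdkn1b, which encodes p27, had 13.6, 4.64 and 5.49 CPM in the PLT-HSC libraries, 3.17 to 9.39 CPM with a median of 5.66 CPM in the PEM-HSC libraries, and 10.8, 3.59, 9.28 and 13.8 CPM in the MUL-HSC libraries. Its log2 fold change was -0.24 (SE 0.996) for PLT-HSC and -0.70 (SE 0.83) for PEM-HSC against MUL-HSC, with groups that overlapped and an edgeR adjusted p of 0.999 in both.

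Read as a set, 0 of the 10 genes were called at an adjusted p under 0.05 in any of the 3 comparisons by edgeR, DESeq2 or limma voom. For PLT-HSC against MUL-HSC 0.0479% of all tested genes were called by edgeR, 2.12% by DESeq2 and 0% by limma voom. At an unadjusted p under 0.05 there were 3 of 10 genes in that comparison, against 7.37% of all tested genes, and 3 of 10 had no overlap between groups in CPM, against 6.79% of all, and 2 of 10 (Ccnd1 and Rb1) in TMM-scaled CPM. The first count was 1 without PLT-HSC replicate 1, and 0 without MUL-HSC replicates 1 and 2, which was tried only after the data had been seen. In that last setting, where none of the 3 was in the first count, Ccnd1 had a log2 fold change of 1.10, Rb1 2.29 and Cdk4 -0.30. Leaving libraries out cannot create an overlap, so the lack of overlap of these 3 genes there was fixed in advance. The median log2 fold change of the 10 genes was 0.0067, beside 0.039 over all genes tested.

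For PEM-HSC against MUL-HSC, where edgeR called 0.00798% of all tested genes, DESeq2 1.43% and limma voom 0.00798%, 1 of 10 genes (Ccnd1) had an unadjusted p under 0.05, against 5.93% of all, and 0 of 10 had groups without overlap, against 1.49% of all. Without PEM-HSC replicate 4 the first count was 2, and Ccnd1 then had no overlap with MUL-HSC. It was also 2 without MUL-HSC replicate 4. For PLT-HSC against PEM-HSC, where edgeR called 0%, DESeq2 0.947% and limma voom 0.00798%, no gene of the 10 had an unadjusted p under 0.05, against 3.73% of all, or groups without overlap, against 2.16% of all. Without PLT-HSC replicate 2 each of these counts was 1, and the gene without overlap was Rb1. The median log2 fold change was 0.021 for PEM-HSC against MUL-HSC, beside 0.0094 over all genes, and 0.16 for PLT-HSC against PEM-HSC, beside 0.017.

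**Figure D3:**
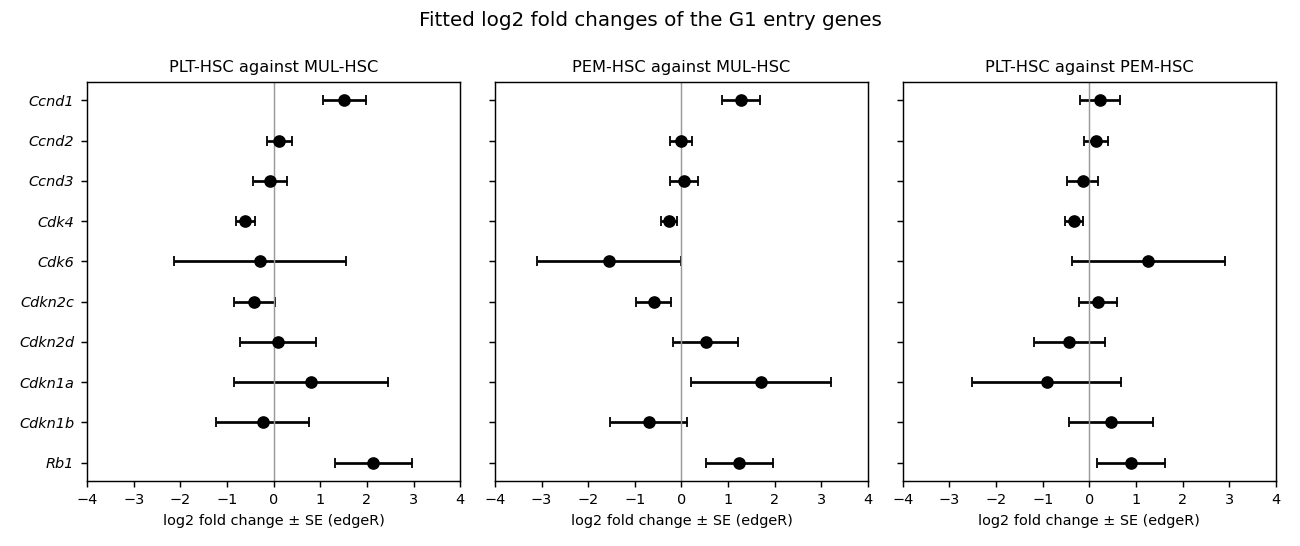
Log2 fold change of each of the 10 genes in the 3 comparisons, as fitted by edgeR over all 13 libraries (points), with its standard error (bars). For PLT-HSC against MUL-HSC, Ccnd1 (1.51) and Rb1 (2.14) lie right of 0 and Cdk4 (-0.60) left of it, and the bars of Cdk6 and Cdkn1a span more than 1 log2 unit to each side.

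The libraries that were high in Ccnd1 tended to be high in Rb1 and low in Cdk4. Over the 13 libraries Spearman's rho was 0.77 (Pearson's r = 0.70) between Ccnd1 and Rb1 and -0.70 (r = -0.68) between Ccnd1 and Cdk4. They were the highest and the lowest of the 45 pairs among the 10 genes and include the difference between groups. Within the 6 PEM-HSC libraries rho was 0.37 for Ccnd1 and Rb1 and -0.60 for Ccnd1 and Cdk4. The inverse order to Cdk4 was not particular to Ccnd1. For Ccnd2 and Cdk4 rho was -0.66 over the 13 libraries and -0.94 within PEM-HSC. For Cdk4 and Rb1 it was -0.55 over the 13 libraries and -0.086 within PEM-HSC. These are descriptions of libraries that also differ in depth and group, and no test was made of them. PLT-HSC replicate 3 was highest in Ccnd1, MUL-HSC replicate 2 was lowest in Ccnd1, and PEM-HSC replicate 4 was lowest in Rb1.

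**Figure D4:**
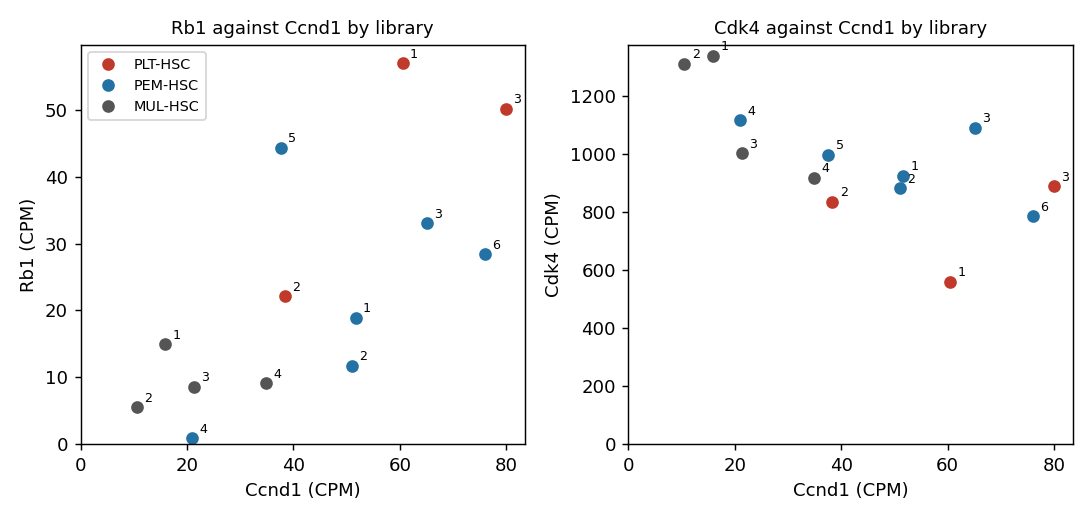
Rb1 (left) and Cdk4 (right) in CPM against Ccnd1 in CPM, with 1 point per library, coloured by group and marked with the replicate number. Rb1 tends to be high where Ccnd1 is high (rho = 0.77, n = 13) and Cdk4 low (rho = -0.70, n = 13), and 3 of 4 MUL-HSC libraries sit at the low end of Ccnd1 beside PEM-HSC replicate 4.

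By the likeness rule, which takes the tested genes with the highest rho over the 13 libraries, the patterns nearest to Ccnd1 were those of Tdrd9 (rho = 0.88) and Plcl2 (0.87), and those nearest to Rb1 were Plekhg2 (0.89) and Srxn1 (0.88). Cdk4 was nearest to Cmtm7 (0.93) and Lgals9 (0.92), Ccnd2 to Vps26a (0.92) and Arhgap29 (0.85), and Ccnd3 to Tollip (0.96) and Tldc1 (0.90). Cdk6 was nearest to Bscl2 and Il12rb1 (0.86 each), and Cdkn2c to Mrpl37 (0.86) and Pecr (0.82). Cdkn2d was nearest to Cdpf1 (0.95), Cdkn1a to Pim3 (0.93) and Cdc42se2 (0.91), and Cdkn1b to Dennd1a (0.88) and Ranbp17 (0.84). Each is the highest of 12536 tested genes, so such values describe the choice as much as the gene.

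Genes of cell division varied between libraries of the same group. The summed level of 18 mitosis genes was 66.7, 182 and 1364 CPM in the PLT-HSC libraries, 219 to 1925 CPM in the PEM-HSC libraries and 968, 1319, 230.3 and 727 CPM in the MUL-HSC libraries. Cdk4 was the member whose order was nearest to that of the mitosis genes, with a rho of 0.64 over the 13 libraries, and Ccnd3 and Cdk6 followed at 0.41 and 0.43. The most negative was Ccnd2 at -0.41, with Rb1 at -0.37, Cdkn1a at -0.34 and Ccnd1 at -0.26. With the summed level of 16 S phase genes, Cdk4 (0.58), Ccnd3 (0.55) and Cdk6 (0.54) stood close together. Ccnd2 (-0.21), Ccnd1 (-0.19) and Rb1 (-0.18) were again negative. PLT-HSC replicate 3, with 1364 CPM of mitosis transcripts, had 80.0 CPM of Ccnd1 and 50.1 CPM of Rb1, PLT-HSC replicate 1, with 66.7 CPM, had 60.5 and 56.9 CPM of them, and PLT-HSC replicate 2, with 182 CPM, had 38.4 and 22.2 CPM. In PEM-HSC replicate 4, which had the most mitosis transcripts (1925 CPM), Ccnd1 stood at 21.0 CPM and Rb1 was at its lowest, 0.860 CPM. MUL-HSC replicate 2, with 1319 CPM, had the lowest Ccnd1, 10.5 CPM, and 5.56 CPM of Rb1. In MUL-HSC replicate 3, which had 230.3 CPM of mitosis transcripts, Ccnd1 and Rb1 stood at 21.3 and 8.61 CPM. Cdk4 was lowest, at 561 CPM, in the library with the fewest mitosis transcripts, PLT-HSC replicate 1.

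**Figure D5:**
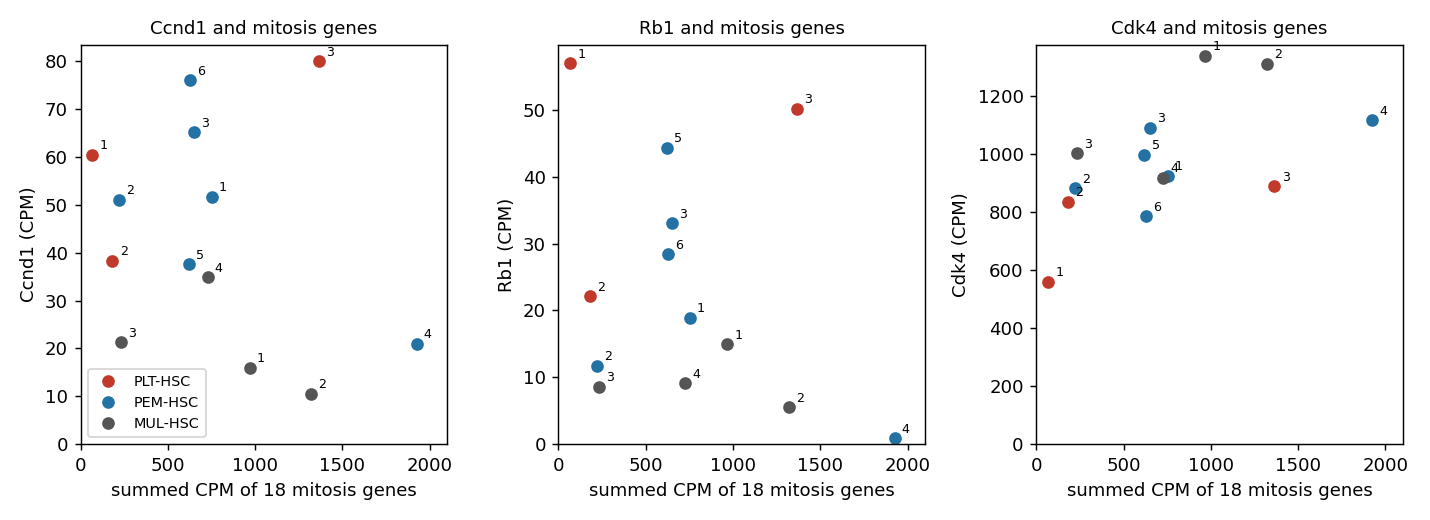
Ccnd1, Rb1 and Cdk4 in CPM against the summed CPM of 18 mitosis genes, with 1 point per library, coloured by group and marked with the replicate number. PLT-HSC replicates 1 and 3 lie far apart in mitosis transcripts (66.7 and 1364 CPM) and both high in Ccnd1 and Rb1, while PEM-HSC replicate 4 (1925 CPM) is low in both.

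The other genes of the pathway were read from lists drawn up from general knowledge, and edgeR called 0 of their 87 tested genes in the 3 comparisons. At an unadjusted p under 0.05 there were 8 for PLT-HSC against MUL-HSC, 4 for PEM-HSC against MUL-HSC and 1 for PLT-HSC against PEM-HSC, beside 7.37%, 5.93% and 3.73% of all tested genes. DESeq2 called 1 gene, Cdkn1c, in each comparison with MUL-HSC, where it called 2.12% and 1.43% of all genes, and limma voom called 0. Among other CDK inhibitors, Cdkn1c, which encodes p57 and is known to keep HSCs at rest, averaged 108 ± 51.3 CPM over PLT-HSC libraries (SD, n = 3), 79.8 ± 19.8 CPM over PEM-HSC libraries (n = 6) and 33.4 ± 4.74 CPM over MUL-HSC libraries (n = 4). Its log2 fold change was 1.72 (SE 0.37, edgeR adjusted p = 0.132) for PLT-HSC and 1.24 (SE 0.33, adjusted p = 0.51) for PEM-HSC against MUL-HSC. By DESeq2 its adjusted p was 0.0014 for PLT-HSC and 0.0202 for PEM-HSC against MUL-HSC. The lowest PLT-HSC value was 49.6 CPM, the lowest PEM-HSC value 54.1 CPM and the highest MUL-HSC value 40.4 CPM. Neither group thus overlapped MUL-HSC, as was so for 6.79% and 1.49% of all tested genes. Other listed genes without overlap in PLT-HSC were 1 higher and 1 lower of cyclin D turnover. Among the DREAM and MuvB genes 1 was lower, as was 1 p53 target gene. In PEM-HSC 1 S phase gene was lower without overlap. Cdkn2b was at 0 except for 3.79 CPM in 1 PLT-HSC library, and Cdkn2a was at 0 in every library.

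Of 12 pocket protein, E2F and DP genes, 7 had a negative log2 fold change in PLT-HSC and 8 in PEM-HSC against MUL-HSC, with medians of -0.16 and -0.14. Tfdp1, the partner of E2F proteins, averaged 123 ± 29.6 CPM in PLT-HSC, 145 ± 27.3 CPM in PEM-HSC and 163 ± 48.0 CPM in MUL-HSC. E2f6, a repressive E2F, averaged 98.3 ± 45.5, 115 ± 15.4 and 131 ± 47.1 CPM in the same order. Of 10 tested genes of the cyclin E, cyclin A and CDK2 step, 7 were negative in PLT-HSC and 9 in PEM-HSC against MUL-HSC, with medians of -0.39 and -0.34, beside 0.039 and 0.0094 over all genes. Ccnh, the cyclin of the CDK-activating kinase, averaged 331 ± 39.1 CPM in PLT-HSC, 336 ± 83.3 CPM in PEM-HSC and 463 ± 90.9 CPM in MUL-HSC, with an edgeR adjusted p of 0.676 and 0.749 against MUL-HSC. Cks1b, a CDK subunit needed to destroy p27, averaged 139 ± 123, 195 ± 60.4 and 253 ± 99.9 CPM in the same order.

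S phase genes, which E2F proteins switch on, had 14 of 16 members negative in PLT-HSC (median log2 fold change -0.77) and 15 of 16 in PEM-HSC (median -0.37) against MUL-HSC, beside 52.4% and 50.7% of all tested genes with a positive value. The libraries overlapped: the summed level of the 16 genes was 699, 850.0 and 2342 CPM in the PLT-HSC libraries, 811 to 2611 CPM in the PEM-HSC libraries and 2980.0, 2063, 932 and 2506 CPM in the MUL-HSC libraries. Mcm6, a helicase subunit, averaged 262 ± 135 CPM in PLT-HSC, 277 ± 165 CPM in PEM-HSC and 403 ± 141 CPM in MUL-HSC, and Pcna, the replication clamp, 204 ± 105, 254 ± 65.1 and 321 ± 159 CPM. Mitosis genes had 15 of 18 members negative in PLT-HSC (median -0.76) and 8 of 18 in PEM-HSC (median 0.06) against MUL-HSC. Ccnb2, a mitotic cyclin, averaged 103 ± 137, 186 ± 110 and 176 ± 99.0 CPM in PLT-HSC, PEM-HSC and MUL-HSC, and its kinase Cdk1 72.5 ± 82.3, 75.0 ± 53.8 and 92.1 ± 34.8 CPM, so the SD of PLT-HSC exceeded its mean.

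A list of 6 genes was drawn up for DREAM, a complex that represses cell cycle genes at rest, and for MuvB. Of these genes, 2 were positive in PLT-HSC and 4 in PEM-HSC against MUL-HSC, with medians of -0.26 and 0.06. Rbbp4 averaged 230.3 ± 60.5 CPM in PLT-HSC, 214 ± 49.3 CPM in PEM-HSC and 186 ± 46.8 CPM in MUL-HSC, and Lin37 85.4 ± 15.7, 114 ± 20.2 and 110 ± 16.6 CPM. Of 6 tested genes of cyclin D turnover and the CDK4 chaperone, 2 were positive in PLT-HSC and 4 in PEM-HSC, with medians of -0.24 and 0.04. Gsk3b, a kinase that marks cyclin D1 for destruction, averaged 111 ± 23.4 CPM in PLT-HSC, 142 ± 31.0 CPM in PEM-HSC and 188.5 ± 79.2 CPM in MUL-HSC (edgeR adjusted p = 0.646 and 0.999 against MUL-HSC). Cdc37, the CDK4 chaperone, averaged 123 ± 35.2, 119 ± 30.0 and 122 ± 17.2 CPM.

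Of 6 FOXO and p53 regulators, 4 were negative in both comparisons with MUL-HSC (medians -0.29 for PLT-HSC and -0.39 for PEM-HSC). Trp53 averaged 225 ± 38.8 CPM in PLT-HSC, 254 ± 71.5 CPM in PEM-HSC and 236 ± 38.9 CPM in MUL-HSC, and Mdm2, its ubiquitin ligase and target, 72.5 ± 16.0, 68.0 ± 22.1 and 102 ± 30.6 CPM. Of 12 p53 target genes, 8 were positive in PLT-HSC and 10 in PEM-HSC against MUL-HSC (medians 0.41 and 0.53). Of all tested genes 52.4% and 50.7% were positive (medians 0.039 and 0.0094). The summed p53 targets overlapped, at 578 to 1262 CPM in PLT-HSC, 626 to 1156 CPM in PEM-HSC and 419 to 951 CPM in MUL-HSC. At an unadjusted edgeR p under 0.05 there was 1 lower and 0 higher in PLT-HSC, and 0 in PEM-HSC. Sesn1, a stress sensor of the p53 and FOXO pathways, averaged 521 ± 262 CPM in PLT-HSC, 549 ± 180 CPM in PEM-HSC and 349 ± 163 CPM in MUL-HSC, and Ccng1 averaged 94.1 ± 32.7, 123 ± 40.6 and 95.7 ± 54.1 CPM.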

How the data were processed

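The authors deposited 1 table of raw read counts per gene symbol for the 13 libraries. The submitters' processing notes name mm9 as the build, STAR, featureCounts, FastQC and Trimmomatic as tools, and no versions. Settings and strand mode are not given in the sources used here. Per the labels, polyadenylated RNA was amplified by Smart-seq+ without molecular identifiers. Counts thus hold PCR copies, and floors cover counting error only. The 92 ERCC spike-in rows (0.0191% to 0.0612% of counts) were left out. Replicates were not copies: over 24 pairs within groups, chi-square divided by its degrees of freedom was at least 163.

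Counts were fitted with edgeR 4.0.16 in R 4.3.3 (filterByExpr, TMM, robust quasi-likelihood, a term per group over all 13 libraries), with Benjamini-Hochberg adjustment over 12536 genes and calls at 0.05. The standard error (SE) is the fold change over the root of the F statistic. The fit was tested on simulated data. CPM is scaled to total gene counts. Lengths came from GENCODE M21 on GRCm38, a later build than that of the counts, using the longest principal transcript. Alternatives included DESeq2 1.42.0, limma 3.58.1 (voom), other scalings and filters, and leaving out each library.

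The 10 genes and the lists were chosen with earlier results of these data known. From each list, genes called were to be named (up to 4), or else the 2 with the highest CPM, and the 2 genes most like each member, of which 1 is not reported here.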

Additional observations from a re-analysis of the deposited data

Results flagged for a closer look

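Values that stood apart within a group of 4 or 6 libraries were looked for by Dixon's test among the 10 genes and the other genes named from the lists, in 54 groups of values, of which chance flags about 1 in 20. There were 4. Ccnd2 in PEM-HSC replicate 6 was at 545 CPM, while the other 5 libraries lay between 216 and 299 CPM. Cdkn1a in PEM-HSC replicate 2 was at 34.2 CPM, with the others at 0 to 7.84 CPM. Gsk3b in PEM-HSC replicate 3 was at 79.5 CPM, below the other 5 at 145 to 163 CPM. Ccng1 in MUL-HSC replicate 3 was at 176 CPM, above the other 3 at 61.0 to 77.3 CPM.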

How the results depend on the processing

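None of the 10 genes was called in 25 other settings of the comparisons with MUL-HSC, or in the same settings of PLT-HSC against PEM-HSC apart from leaving out MUL-HSC replicates 1 and 2 together. The filter at a mean of 10 CPM tested 6 of the 10. Their lowest adjusted p was 0.0915, for Ccnd1 in PLT-HSC against MUL-HSC by DESeq2. Of 728 recomputed fold changes 696 kept their sign, and those of Ccnd1 and Rb1 did so in every setting in all 3 comparisons. Leaving out 1 library at a time gave Ccnd1 1.30 to 1.85 for PLT-HSC and 1.08 to 1.64 for PEM-HSC against MUL-HSC, Rb1 1.87 to 2.46 and Cdk4 -0.76 to -0.42 for PLT-HSC against MUL-HSC.

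Signs turned for genes with small or uneven differences, and the cause was not tested. For PLT-HSC against MUL-HSC, Cdkn1a stood at -0.32 by limma voom, Cdk6 at 1.20 with the replicate block and Ccnd2 at -0.090 without MUL-HSC replicates 1 and 2, a setting added after seeing the data. For PEM-HSC against MUL-HSC, Ccnd2 stood at 0.0017 with total counts, Ccnd3 at -0.067 and Cdkn1a at -0.17 by limma voom, Ccnd3 at -0.090 with detected genes as a covariate, and Cdk4 at 0.027 without MUL-HSC replicates 1 and 2. Leaving out 1 library gave, for PLT-HSC against MUL-HSC, Ccnd2 -0.013 to 0.29, Ccnd3 -0.35 to 0.091, Cdk6 -2.06 to 0.79, Cdkn2d -0.069 to 0.32, Cdkn1a -1.51 to 1.31 and Cdkn1b -0.89 to 0.0079. For PEM-HSC against MUL-HSC it gave Ccnd2 -0.24 to 0.15 and Ccnd3 -0.19 to 0.20. For PLT-HSC against PEM-HSC it gave Ccnd3 -0.42 to 0.11, Cdk6 -0.49 to 1.82, Cdkn2c -0.18 to 0.35, Cdkn1a -3.23 to 0.34 and Cdkn1b -0.19 to 0.71.

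Counts over all genes depended on the tool and filter. For PLT-HSC against MUL-HSC the 6 genes called became 11 with no filter, 14 with a mean of at least 10 CPM, 262 by DESeq2, 0 by limma voom, 1 with only the 2 groups compared, 2 with the replicate block and 1 without MUL-HSC replicates 1 and 2. For PEM-HSC against MUL-HSC the 1 gene called became 177 by DESeq2 and 0 with only the 2 groups compared, with the covariate or with the replicate block. For PLT-HSC against PEM-HSC DESeq2 called 115 and limma voom 1. Leaving out 1 library gave 1 to 37, 0 to 4 and 0 to 2 genes in the 3 comparisons.

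Of the 10 genes, 1 to 3, 1 to 2 and 0 to 1 had an unadjusted p under 0.05 with 1 library left out, 3 to 4, 0 to 1 and 0 to 1 had no overlap in CPM, and 0 were called. Leaving a library out cannot create an overlap, so the lower ends of the counts without overlap were fixed in advance. The share of all tested genes without overlap was not computed in these settings. With TMM-scaled CPM 2, 0 and 0 had no overlap. Without MUL-HSC replicates 1 and 2, 0 genes had an unadjusted p under 0.05 in either comparison with MUL-HSC, and limma voom gave 1 for PLT-HSC against PEM-HSC. Replicate numbers showed no pairing of the samples over all tested genes: over 10 same-numbered pairs, the correlation of deviations ran from -0.13 to 0.048. The check cannot show whether same-numbered libraries share a batch that acts on few genes. With the replicate block Rb1 stood at 1.61 (unadjusted p = 0.122) in PLT-HSC and 0.23 in PEM-HSC against MUL-HSC. Groups of 3 to 6 libraries of 100 cells limit the low genes Cdk6, Cdkn1a and Cdkn1b most.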
